A study of Mus musculus with 4 samples.

Results

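The genes described here encode the 3 chains of fibrinogen (Fga, Fgb and Fgg) and 2 fibrinogen-like proteins (Fgl1 and Fgl2) in mouse liver tumours. These 5 genes were chosen by symbol, with their values in AKK and PBS tumours already known, from 48526 genes in the count tables. Their AKK against PBS differences are therefore given as a description without a test. All 5 were among the 17479 genes that passed the filter on low counts, and Fga, Fgb, Fgg and Fgl1 passed it only through their reads in the AKK group. Bulk RNA was sequenced from 2 PBS and 2 AKK tumours as read pairs of 151 bp. All mice were C57BL/6, ate an MCD (methionine- and choline-deficient) diet for 2 weeks and then carried an implant of the mouse hepatoma line RIL-175, labelled with luciferase, in the liver. AKK mice received 5000000000 CFU of Akk (Akkermansia muciniphila) by mouth and PBS mice received PBS. Feeding began 2 weeks before the diet, continued through it, paused for 6 days after implantation and then resumed. The diet, the implant and the surgery were thus shared by both groups, 1 cell line made every tumour, and the host kept its own liver cells.

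Gene reads numbered 48912489 to 59027227 per library. The floor used here for an observed 0 was 3 reads, worth 0.0514 to 0.0631 CPM (a gene's reads relative to all gene reads of its library, scaled by the TMM method). That floor, like the other counting intervals here, covers counting error only. The hepatocyte-lineage genes Afp (7.18 to 11.1 CPM) and Hnf4a (48.7 to 168 CPM) were present in every library, so the labelled tissue was not contradicted. Other markers of hepatoma and fetal liver were less even. Of 10 kept in the list with Afp, 5 lay below both PBS libraries in both AKK libraries, 2 above, and 3 overlapped. Over all genes tested, 24.7% lay below and 26.7% above. The list's fitted log2 differences, AKK minus PBS, ran from -7.72 to 5.13, with a median of -0.20. Of 22 markers of adult hepatocytes, 11 had under 20 reads in the 2 PBS libraries together. PBS 1 also stood apart by its skeletal muscle genes, whose summed level was 298 CPM against 2.88 to 9.40 CPM in the other libraries. In bulk tissue, fewer cells of a type and less RNA per cell cannot be told apart. The deposited tables are named in different patterns in the 2 groups, and feeding cannot be told apart from any difference between cohorts that those names may mark.

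Fibrinogen is a plasma protein made by hepatocytes, which assemble pairs of Aα, Bβ and γ chains in the endoplasmic reticulum and secrete the complex. Thrombin cleaves it to fibrin, factor XIII cross-links the clot, and plasmin dissolves it. The 3 chain genes sit side by side, and their transcription rises in the acute phase response through IL-6 and STAT3 on a base of liver-enriched factors such as C/EBP. FGL1 is a protein secreted by hepatocytes and a ligand of the T cell receptor LAG-3. FGL2 exists as a membrane prothrombinase of macrophages and endothelium and as a soluble protein of regulatory T cells that binds the inhibitory Fc receptor FcγRIIB.

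The 250 bases before the start site were taken for 4 of the 5 genes, all but Fgl1, from RefSeq on GRCm38.p6, and are printed because the chains moved together across the libraries. Capitals mark 2 motifs searched on both strands: CTGGGA, the core of the IL-6 response element bound by STAT3, and TTGCNNAA, a C/EBP-type site. The windows are chr3:83025903-83026152 on the plus strand for Fga, chr3:83049864-83050113 on the minus strand for Fgb, chr3:83007474-83007723 on the plus strand for Fgg and chr5:21372423-21372672 on the plus strand for Fgl2.
Fga: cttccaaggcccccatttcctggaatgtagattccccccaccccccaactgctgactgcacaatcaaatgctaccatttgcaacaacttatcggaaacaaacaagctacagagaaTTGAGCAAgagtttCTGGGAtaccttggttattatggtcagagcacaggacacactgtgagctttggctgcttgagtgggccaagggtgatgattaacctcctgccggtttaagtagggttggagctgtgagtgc
Fgb: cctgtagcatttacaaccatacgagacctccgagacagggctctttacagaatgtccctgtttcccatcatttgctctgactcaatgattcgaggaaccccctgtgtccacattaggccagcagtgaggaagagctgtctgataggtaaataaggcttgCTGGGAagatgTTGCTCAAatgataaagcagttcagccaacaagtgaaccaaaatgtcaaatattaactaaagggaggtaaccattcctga
Fgg: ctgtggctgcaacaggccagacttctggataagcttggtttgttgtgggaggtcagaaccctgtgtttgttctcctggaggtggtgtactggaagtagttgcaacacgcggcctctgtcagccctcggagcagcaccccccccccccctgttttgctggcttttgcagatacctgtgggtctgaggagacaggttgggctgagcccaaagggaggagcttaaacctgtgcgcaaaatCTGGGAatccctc
Fgl2: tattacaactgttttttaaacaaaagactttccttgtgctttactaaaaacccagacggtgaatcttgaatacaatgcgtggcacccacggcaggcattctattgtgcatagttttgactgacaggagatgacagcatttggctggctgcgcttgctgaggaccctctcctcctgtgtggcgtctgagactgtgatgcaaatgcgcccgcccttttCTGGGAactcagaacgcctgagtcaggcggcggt
CTGGGA was found on the gene's own strand in all 4 windows, with its first base 121 bases before the start in Fga, 91 in Fgb, 13 in Fgg and 34 in Fgl2. It is a common word that 27.0% of 32851 promoter windows of that length hold. TTGCNNAA, held by 9.56%, stood 80 bases before the start of Fgb and, on the opposite strand, 135 bases before that of Fga. Fga and Fgb thus had a match to both motifs, while Fgg and Fgl2 had CTGGGA alone. CTGGGA and TTGCNNAA occurred together in 2.38% of all windows. No 2 matches overlapped in these sequences, and a match describes letters and shows no binding.

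The 3 fibrinogen chain genes were at the edge of detection in both PBS tumours and well expressed in both AKK tumours. Fgb (ENSMUSG00000033831.5, the Bβ chain) had 6 and 9 reads in PBS 1 and PBS 2 and 4262 and 2967 in AKK 1 and AKK 2, which are levels of 0.112, 0.189, 75.4 and 50.8 CPM. The lowest AKK value was far above the highest PBS value. The fitted difference of Fgb was 8.70 on the log2 scale, a 416-fold ratio of AKK to PBS. Fga (ENSMUSG00000028001.16, the Aα chain) had 0, 12, 1819 and 1559 reads in the same order, or 0, 0.252, 32.2 and 26.7 CPM. PBS 2 thus held all of the Fga reads of the PBS group. Its fitted log2 difference was 7.90, a 238-fold ratio. Against PBS 1 alone, with its 0 observed reads set at the floor of 3 reads, the mean AKK level of Fga was at least 524-fold higher. Fgg (ENSMUSG00000033860.13, the γ chain) had 2, 5, 1590 and 992 reads, or 0.0375, 0.105, 28.1 and 17.0 CPM, with a fitted log2 difference of 8.29 and a ratio of 313. AKK 1 was the highest library for each of the 3 chains and AKK 2 the second.

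The PBS levels of the chains rest on few reads and their order is not resolved. Exact Poisson 95% intervals for Fgb were 0.0413 to 0.245 CPM in PBS 1 and 0.0865 to 0.359 CPM in PBS 2, and those for Fgg, 0.00454 to 0.135 and 0.0341 to 0.245 CPM, overlapped them. For Fga the interval ran from 0 to 0.0691 CPM in PBS 1 and from 0.130 to 0.441 CPM in PBS 2, so the 2 PBS libraries differed by more than counting error in this chain. The AKK levels were precise by comparison, with Fgb intervals of 73.2 to 77.7 CPM in AKK 1 and 49.0 to 52.7 CPM in AKK 2. The SD of log2 CPM (with a prior count of 2 reads) between the 2 AKK libraries was 0.19 for Fga, 0.40 for Fgb and 0.51 for Fgg (n = 2).

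For Fga, Fgb, Fgg and Fgl1 the lowest AKK value exceeded the highest PBS value, and for Fgl2 the highest AKK value was below the lowest PBS value. Of all genes tested, 26.7% lay above and 24.7% below in this sense, and nothing is read from the members' count because that contrast chose them. The quasi-likelihood test of edgeR with Benjamini-Hochberg adjustment at 0.05 called 1 gene of 17479 higher in AKK, a share of 0.00572%, and 0 lower. That 1 gene was Fgb, which was chosen on this contrast, so its call is not a test and nothing is read from it. Without PBS 1, the library with skeletal muscle genes, the log2 differences were 6.85 for Fga, 8.36 for Fgb, 7.71 for Fgg, 7.33 for Fgl1 and -1.18 for Fgl2. Without PBS 2 they were 9.12 for Fgg and 13.68 for Fga, the latter set by the prior count because PBS 1 has 0 Fga reads, and without AKK 1 Fgl1 was at 6.42. Unadjusted p under 0.05 held for 1171 genes higher (6.70%) and 1506 lower (8.62%), DESeq2 called 357 (2.08% of 17140) higher and 521 (3.04%) lower, and limma-voom called 0 of 17479 in either direction. The median log2 difference over all genes tested was 0.02.

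**Figure D1:**
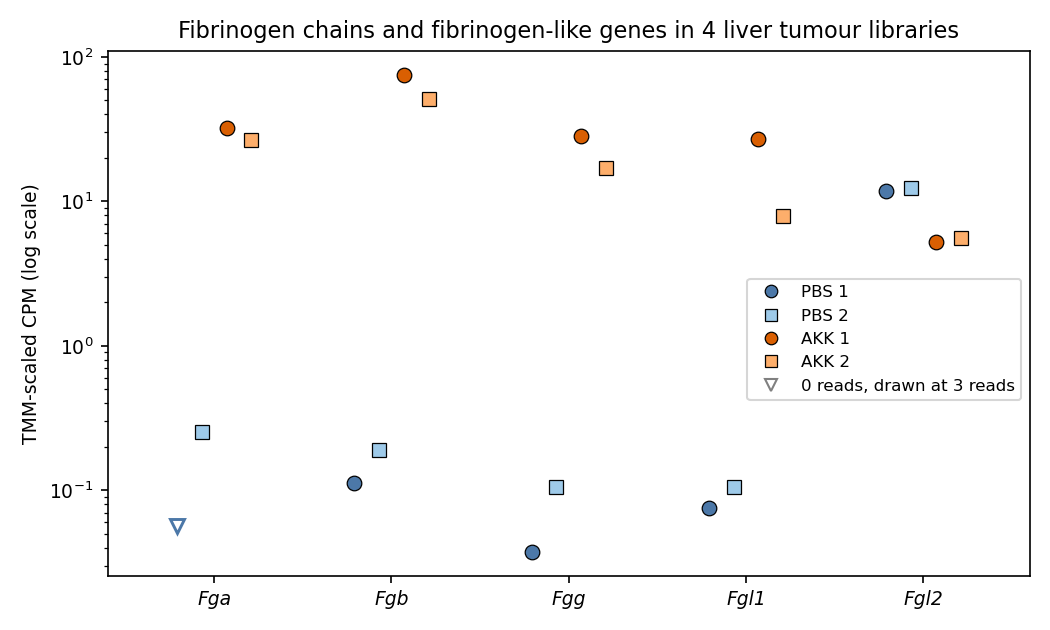
Level of each gene (horizontal axis) in each library as TMM-scaled CPM on a log axis, with 1 point per library; an open triangle is a library with 0 reads, drawn at the value of 3 reads. The 3 chains and Fgl1 lie between 7.86 and 75.4 CPM in AKK and at or below 0.252 CPM in PBS, while Fgl2 lies at 11.7 and 12.3 CPM in PBS and at 5.27 and 5.60 CPM in AKK.

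The order of the chains per length depended on the tumour and on the gene model. The genes' identifiers carry the same version as in GENCODE M21, whose longest coding transcripts measure 2587 bases for Fga, 3810 for Fgb and 1741 for Fgg. On the scale of CPM per kilobase, Fga stood at 12.4 in AKK 1 and 10.3 in AKK 2, Fgb at 19.8 and 13.3, and Fgg at 16.2 and 9.76. The order was Fgb, Fgg, Fga in AKK 1 and Fgb, Fga, Fgg in AKK 2, so the place of Fga and Fgg was not the same in the 2 tumours. The Fgb level depends on the gene model, since the M21 model runs 2105 bases past the end of the RefSeq model. With the 1705 bases up to the RefSeq end, Fgb reached 44.2 and 29.8 CPM per kilobase, more than either other chain in both libraries. Fgl1 (1120 bases) stood at 24.01 CPM per kilobase in AKK 1 and 7.02 in AKK 2, above the 3 chains in the first tumour and below them in the second, with Fgb on its full model length. In PBS the per-length order was led by Fgl2 (3788 bases) at 3.10 and 3.24 CPM per kilobase, while the other 4 genes, on their full models, lay between 0 and 0.0975.

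The make-up of the chain reads, which does not depend on library scaling, was similar in the 2 AKK tumours. Of 7671 chain reads in AKK 1, Fgb gave 55.6% (exact binomial 95% interval 54.4 to 56.7%), Fga 23.7% (22.8 to 24.7%) and Fgg 20.7% (19.8 to 21.7%). Of 5518 in AKK 2, Fgb gave 53.8% (52.4 to 55.1%), Fga 28.3% (27.1 to 29.5%) and Fgg 18.0% (17.0 to 19.02%). The Fga share was higher and the Fgg share lower in AKK 2 by more than counting error, with 1 library on each side. The intervals for Fgb overlapped. In PBS the shares rest on 8 reads in PBS 1, of which Fga had 0, Fgb 75% and Fgg 25%, and on 26 reads in PBS 2, of which Fga had 46.2%, Fgb 34.6% and Fgg 19.2%.

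**Figure D2:**
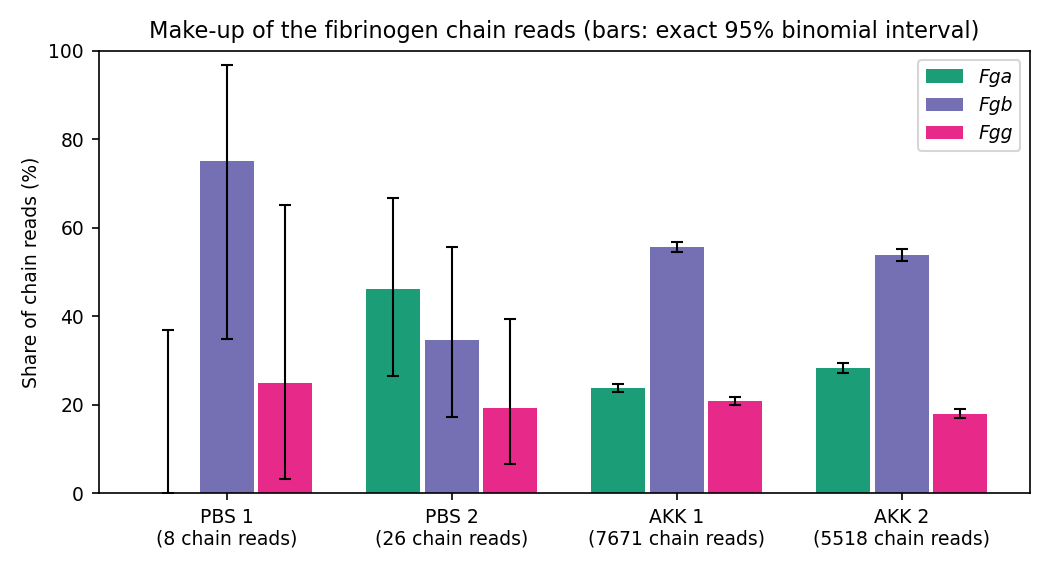
Share of the reads of Fga, Fgb and Fgg (percent, vertical axis) in their sum in each library, with exact 95% binomial intervals as bars and the number of chain reads under each library. Fgb holds 55.6% and 53.8% in the 2 AKK libraries, and the PBS intervals are wide because they rest on 8 and 26 reads.

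The chain genes form a compact cluster on chromosome 3. In the RefSeq order, Lrat, Fgg, Fga, Fgb and Plrg1 follow each other, and Fgb lies on the opposite strand to Fgg and Fga. Plrg1, a splicing factor gene, had 56.8 and 52.4 CPM in PBS and 55.7 and 61.1 CPM in AKK, with overlapping groups. Lrat, the retinol-esterifying enzyme of hepatic stellate cells, was counted 10 and 4 times in the PBS tumours and 12 and 23 times in the AKK tumours. Both Lrat values in AKK (0.212 and 0.394 CPM) lay above both in PBS (0.187 and 0.0841 CPM), the direction of the chains, with a log2 difference of 1.13 (edgeR adjusted p = 0.472). Fgg shares 115 exon bases with Gm30097 on the opposite strand, a gene with 0 reads on its own strand in all 4 libraries. The other 4 members share no exon base with another gene.

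Fgl1, the LAG-3 ligand, followed the chains in direction but differed more between the AKK tumours. Fgl1 (ENSMUSG00000031594.9) was seen with 4 and 5 reads in the PBS tumours, against 1520 in AKK 1 and 459 in AKK 2, which are 0.0750, 0.105, 26.9 and 7.86 CPM. Both AKK values lay far above both PBS values, and AKK 1 was 3.42 times AKK 2. The fitted log2 difference was 7.56, a ratio of 189, and the SD of log2 CPM between the AKK libraries was 1.25 (n = 2) against 0.19 to 0.51 for the chains. Its neighbours on chromosome 8 had other patterns. Mtus1 had 9.39 and 5.03 CPM in PBS and 5.52 and 5.75 CPM in AKK, and Pcm1, a centriolar satellite gene, 142 and 137 CPM in PBS and 84.6 and 95.4 CPM in AKK. Lag3, the receptor of FGL1 on T cells, was low, at 2.91 and 5.11 CPM in PBS and 3.59 and 3.46 CPM in AKK. The Lag3 groups overlapped, so receptor and ligand mRNA did not share a pattern.

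Fgl2 went the other way, at levels that were close within each group. Fgl2 (ENSMUSG00000039899.5) was counted 626 and 584 times in the PBS tumours and 298 and 327 times in the AKK tumours, or 11.7, 12.3, 5.27 and 5.60 CPM. The fitted log2 difference was -1.14, a PBS to AKK ratio of 2.21. It was the only one of the 5 genes well above the floor of detection in every library. Counting intervals of the 2 PBS values were 10.8 to 12.7 and 11.3 to 13.3 CPM, against 4.69 to 5.91 and 5.01 to 6.24 CPM for AKK. Fgl2 lies inside Ccdc146 on the other strand of chromosome 5, between Gsap and Fam185a. Ccdc146 had 0 to 4 reads on its own strand. Gsap had 49.0 and 51.7 CPM in PBS and 47.9 and 53.9 CPM in AKK, and Fam185a 6.82 and 6.06 CPM in PBS and 5.17 and 6.54 CPM in AKK, so both overlapped between groups.

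Markers of the cell types known to make FGL2 had list medians in different directions. The counts below stand beside shares over all genes of 24.7% below both PBS libraries and 26.7% above. At an unadjusted p under 0.05, 8.62% of all genes were lower and 6.70% higher. Of 12 macrophage markers, 7 lay below both PBS libraries in both AKK libraries and 0 above, with a median log2 difference of -0.41; edgeR called 0 of them, 4 were lower at an unadjusted p under 0.05 and DESeq2 called 1 lower. Mpeg1, which encodes a pore-forming protein of macrophages, had 80.3 and 78.2 CPM in PBS and 34.3 and 45.3 CPM in AKK (log2 difference -0.99 ± 0.21 SE, edgeR adjusted p = 0.186, DESeq2 adjusted p = 0.00879). Csf1r, the macrophage growth factor receptor, had 61.5 and 35.0 CPM in PBS and 23.5 and 28.1 CPM in AKK (log2 difference -0.90, edgeR adjusted p = 0.282). Cd68, Trem2 and Apoe, also of this list, overlapped between groups, and its summed level was 1309 and 905 CPM in PBS and 886 and 843 CPM in AKK. Of 11 endothelial markers kept, 8 lay below both PBS libraries and 1 above, with a median of -1.34 and with edgeR calling 0, DESeq2 1 higher and 5 lower. Without PBS 1 the endothelial median was -0.77 and the macrophage median -0.25. The endothelial summed levels were 164 and 101 CPM in PBS and 69.5 and 63.7 CPM in AKK. The endothelial cadherin gene Cdh5, also a fibrin receptor, had 24.3 and 16.7 CPM in PBS and 7.45 and 7.76 CPM in AKK (log2 difference -1.43 ± 0.29 SE, edgeR adjusted p = 0.182, DESeq2 adjusted p = 0.000747). Of 14 T and NK cell markers kept, 6 lay above both PBS libraries, 1 below and 7 overlapped, with a median of 0.96. EdgeR and DESeq2 called 0 of these, and 2 were higher and 0 lower at an unadjusted p under 0.05. Their summed level was 8.94 and 17.5 CPM in PBS and 21.3 and 13.1 CPM in AKK, and the regulatory T cell gene Foxp3 had 15, 8, 42 and 11 reads. Without AKK 1 the T and NK median was 0.42. The part of these cell types in the Fgl2 difference was not tested.

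Among Fc receptors, Fcgr2b, which encodes the receptor of soluble FGL2, had 52.6 and 33.3 CPM in PBS and 40.7 and 31.6 CPM in AKK, with overlapping groups. Fcgr3, an activating receptor that FGL2 also binds, had 57.4 and 43.7 CPM in PBS and 36.8 and 35.1 CPM in AKK (log2 difference -0.49 ± 0.21 SE, edgeR adjusted p = 0.337). Of the 12 kept genes of the list of FGL1 and FGL2 partners and checkpoint genes, edgeR called 0 and DESeq2 called 0, and 0 had an unadjusted p under 0.05. In that list 1 gene lay above, 3 below and 8 overlapped. The shares over all genes were 26.7% above and 24.7% below, so nothing is read from these counts. The list's median log2 difference was 0.00 against 0.02 for all genes. Leaving out PBS 2 gave 0.48 and leaving out AKK 1 gave -0.24. Cd274, the gene of PD-L1, was highest in PBS 2 at 43.9 CPM and lay between 14.3 and 18.8 CPM in the other 3 libraries.

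The genes whose profiles were most like those of the members were found by the root mean square difference of centred log2 CPM over the 4 libraries, among 11846 protein-coding genes. Closest to Fgg was Pzp, the α2-macroglobulin-type protease inhibitor of mouse plasma, at 0.106, followed by Ahsg (0.227), Ambp (0.281), Fgb (0.356) and Kng1 (0.550). Closest to Fgb were Pzp (0.284), Fgg (0.356), Ahsg (0.475), Ambp (0.496) and Kng1 (0.711). Fga, with 0 and 12 reads in PBS 1 and PBS 2, had no such near neighbour. Its distances were 0.736 for Pzp, 0.737 for Ambp, 0.765 for Fgg, 0.835 for Ahsg and 0.853 for Fgb. Each of these genes encodes a plasma protein. Pzp had 0.0562 and 0.147 CPM in PBS and 42.5 and 23.98 CPM in AKK, and its levels stepped between the 2 AKK tumours by 1.77, close to the ratio of Fgg. Ahsg, the fetuin-A gene, had 0.131 and 0.294 CPM in PBS and 77.5 and 30.1 CPM in AKK. Ambp, which encodes α1-microglobulin and bikunin, had 0.0375 and 0.147 CPM in PBS and 42.4 and 15.8 CPM in AKK.

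Fgl1 had a different set of neighbours from the chains. The 5 closest were Serpina1e (0.255), Orm1 (0.408), Kng1 (0.478), Ahsg (0.491) and Serpina1a (0.494), while Fgg ranked 9, Fgb 14 and Fga 20. Serpina1e had 0.0562 and 0.105 CPM in PBS and 21.4 and 4.78 CPM in AKK, but the Serpina1 and Orm genes have near-identical copies, so single members of these families are uncertain. Kng1, the kininogen gene, had 0.0187 and 0.0631 CPM in PBS and 33.4 and 6.85 CPM in AKK. The genes most like Fgl2 were Pard3b (0.0184), Lss (0.0378), Dock9 (0.0408), Clcn5 (0.0649) and Dennd4a (0.0708). Pard3b, a cell polarity gene, had 7.80 and 8.05 CPM in PBS and 3.57 and 3.70 CPM in AKK. Lss, the lanosterol synthase gene of cholesterol synthesis, had 79.2 and 82.6 CPM in PBS and 35.2 and 40.0 CPM in AKK. With 4 libraries in 2 groups, likeness mainly reflects the size of the group difference and the steps within the groups. For Fga the larger step was within PBS, between 0 and 12 reads. Its SD of log2 CPM was 2.10 there and 0.19 within AKK. The distances of Fga thus rest partly on reads near the floor.

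The step between the 2 AKK tumours was smaller for the chains than for most hepatocyte marker genes. That step is part of the spread within AKK in the contrast that chose the members, so it is not independent of their choice. The AKK 1 to AKK 2 ratio of CPM was 1.21 for Fga (95% counting interval 1.13 to 1.29), 1.48 for Fgb (1.42 to 1.56), 1.66 for Fgg (1.53 to 1.79), 3.42 for Fgl1 (3.08 to 3.81) and 0.942 for Fgl2 (0.802 to 1.105). Over all 16453 genes with at least 10 reads in both AKK libraries, the median ratio was 1.02 and the 5th to 95th percentile range 0.537 to 2.4998. The 3 chains lie inside that range and Fgl1 lies outside it. Among 21 adult hepatocyte markers the median was 5.64 (0.351 to 14.8), and 19 of them had a larger ratio than Fga, 19 than Fgb, 17 than Fgg and 14 than Fgl1. Alb, albumin, had a ratio of 6.15, Apoa1, the main protein of high-density lipoprotein, 6.86, and Ttr, the thyroxine carrier transthyretin, 9.11. At the other end, Apob, the protein of very-low-density lipoprotein, had 0.351. With 1 library on each side these are descriptions of 2 tumours.

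Among 21 acute phase protein genes the median AKK 1 to AKK 2 ratio was 3.19 (0.572 to 35.1), and 19, 18, 16 and 10 of them exceeded Fga, Fgb, Fgg and Fgl1. Ratios near those of the chains were found for Cp (ceruloplasmin) at 1.35, Lcn2 (lipocalin 2) at 1.49, C3 (complement component 3) at 1.61 and Pzp at 1.77. Higher ratios were found for Hp (haptoglobin) at 4.82, Orm1 (orosomucoid) at 5.18 and Hamp (the iron hormone hepcidin) at 35.1. These examples were chosen after their values were seen. Read against albumin, the chains together gave 0.870 reads per Alb read in AKK 1 (95% counting interval 0.843 to 0.897) and 3.73 in AKK 2 (3.52 to 3.95). In PBS 2 the value was 0.553 (0.329 to 0.912), and PBS 1 had 8 chain reads and 16 Alb reads. Per Apoa1 read the chains gave 1.32 in AKK 1 and 6.32 in AKK 2, per Hp read 0.697 and 2.34, and per Fgl1 read 5.05 and 12.02. AKK 2 thus carried more chain reads than AKK 1 for each read of these 4 hepatocyte products, although its chain level was lower.

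**Figure D3:**
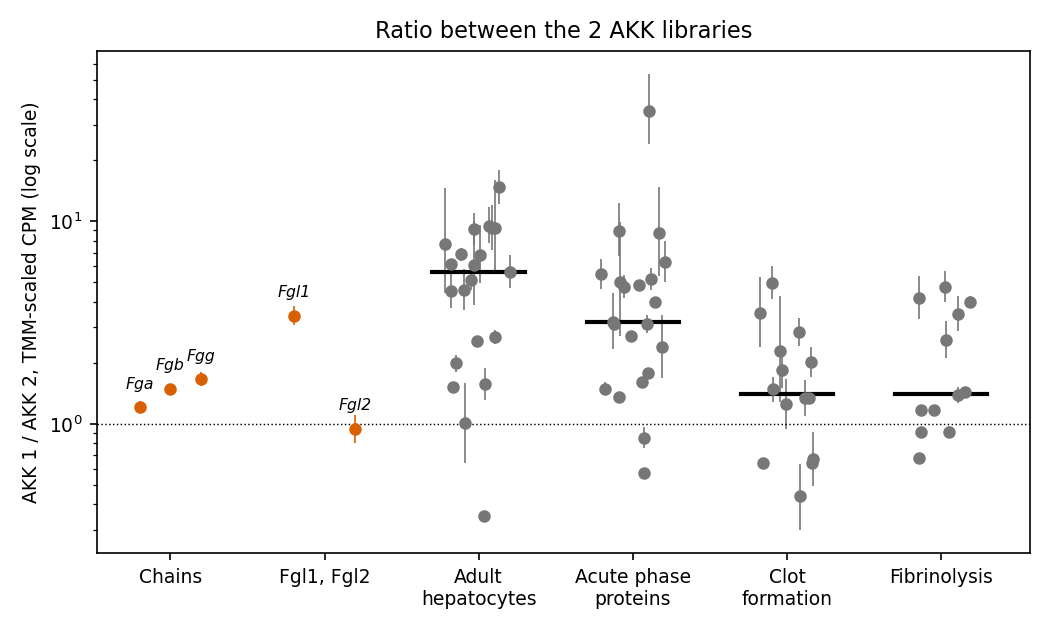
Ratio of the level in AKK 1 to that in AKK 2 (TMM-scaled CPM, log axis), with 1 point per gene, 95% counting intervals as bars and a black line at each list's median; the members are in orange and the genes of 4 lists in grey. Fga, Fgb and Fgg lie at 1.21 to 1.66, below the hepatocyte median of 5.64 and the acute phase median of 3.19, and Fgl1 at 3.42 lies between those medians.

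The list of clot formation genes held both directions. Of 14 kept genes of 15, edgeR called 0, 4 were higher and 2 lower at an unadjusted p under 0.05, and DESeq2 called 4 higher and 2 lower. The groups did not overlap for 6 higher and 3 lower genes. The shares over all genes were 26.7% higher and 24.7% lower, so nothing is read from the 3 lower genes as a count. At that unadjusted p they were 6.70% and 8.62%. The median log2 difference was 0.35 against 0.02 for all genes. F2, prothrombin, whose product cleaves fibrinogen, had 0.0375 and 0.168 CPM in PBS and 10.4 and 3.65 CPM in AKK (log2 difference 6.09 ± 0.92 SE, edgeR adjusted p = 0.182, DESeq2 adjusted p = 3.11e-11). F5, the cofactor of the enzyme that activates prothrombin, had 0.244 and 0.168 CPM in PBS and 4.60 and 2.5003 CPM in AKK (4.09 ± 0.59 SE, edgeR adjusted p = 0.182, DESeq2 adjusted p = 1.47e-07). Leaving out 1 library moved F2 to between 5.15 (without AKK 1) and 7.43 (without PBS 2). F9, factor IX, had 1, 3, 116 and 34 reads.

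The 2 clotting genes lower at an unadjusted p under 0.05, Vwf and F13a1, are made mainly outside hepatocytes. Vwf, the platelet-tethering protein of endothelium, had 15.0 and 11.6 CPM in PBS and 0.743 and 1.70 CPM in AKK (log2 difference -3.44 ± 0.50 SE, edgeR adjusted p = 0.182, DESeq2 adjusted p = 3.42e-10). F13a1, the catalytic subunit of factor XIII found in macrophages and platelets, had 11.2 and 3.93 CPM in PBS and 1.95 and 1.56 CPM in AKK (-2.11 ± 0.58 SE, edgeR adjusted p = 0.235, DESeq2 adjusted p = 0.00801). Without PBS 1 the F13a1 difference was -1.17 (edgeR adjusted p = 0.590) and without PBS 2 -2.70, and without AKK 2 that of Vwf was -4.16. F13b, its carrier subunit from liver, had 1, 0, 44 and 5 reads and did not pass the filter, so the 2 factor XIII subunits lay on opposite sides. F3, tissue factor, which starts clotting, was highest in PBS 2 at 367 CPM and lay at 110 to 160 CPM elsewhere. F7 (2.98 to 4.37 CPM) and F10 (3.54 to 7.18 CPM) overlapped between groups. Tgm2, a tissue transglutaminase, had 84.6 and 82.5 CPM in PBS and 95.3 and 150 CPM in AKK.

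Of 12 fibrinolysis genes, edgeR called 0, 6 were higher and 1 lower at an unadjusted p under 0.05, and DESeq2 called 5 higher and 1 lower. The groups did not overlap for 6 higher genes and 1 lower gene, against 26.7% higher and 24.7% lower over all genes. At that unadjusted p the shares over all genes were 6.70% and 8.62%. The median was 0.59, or 1.22 without PBS 2. Plg, plasminogen, the precursor of the enzyme that dissolves fibrin, had 0, 3, 713 and 155 reads, a ratio of summed levels of 254 with a counting interval of 86.7 to 1234 (edgeR adjusted p = 0.182, DESeq2 adjusted p = 1.31e-09). Cpb2, the carboxypeptidase that trims plasminogen binding sites from fibrin, had 0, 1, 332 and 132 reads, a ratio of 407 with an interval of 72.8 to 16128 (edgeR adjusted p = 0.173, DESeq2 adjusted p = 6.98e-06). Without AKK 1 the fitted log2 difference went from 7.88 to 6.35 for Plg and from 8.37 to 7.52 for Cpb2, and for Cpb2 it was 7.002 with unstranded counts. Hrg, a plasma protein that binds fibrinogen and plasminogen, had 0.0375 and 0.0631 CPM in PBS and 6.14 and 1.47 CPM in AKK (log2 difference 6.19 ± 0.99 SE, edgeR adjusted p = 0.182). Without AKK 1 the Hrg difference was 4.82 and without AKK 2 6.87. Serpinf2, the plasmin inhibitor, had 0.244 and 0.357 CPM in PBS and 8.07 and 2.31 CPM in AKK.

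The activator side of fibrinolysis did not follow the plasma proteins. Plat, tissue plasminogen activator, had 209.6 and 197 CPM in PBS and 121 and 103 CPM in AKK (log2 difference -0.86 ± 0.19 SE, edgeR adjusted p = 0.192, DESeq2 adjusted p = 0.0104). Plau, urokinase, had 40.9 and 20.7 CPM in PBS and 30.5 and 33.3 CPM in AKK, and its receptor Plaur lay at 188 to 238 CPM. In the PBS tumours the activator mRNAs were thus present beside 0 and 3 reads of Plg. Thbd, thrombomodulin, had 10.9 and 16.4 CPM in PBS and 79.2 and 19.8 CPM in AKK.

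**Figure D4:**
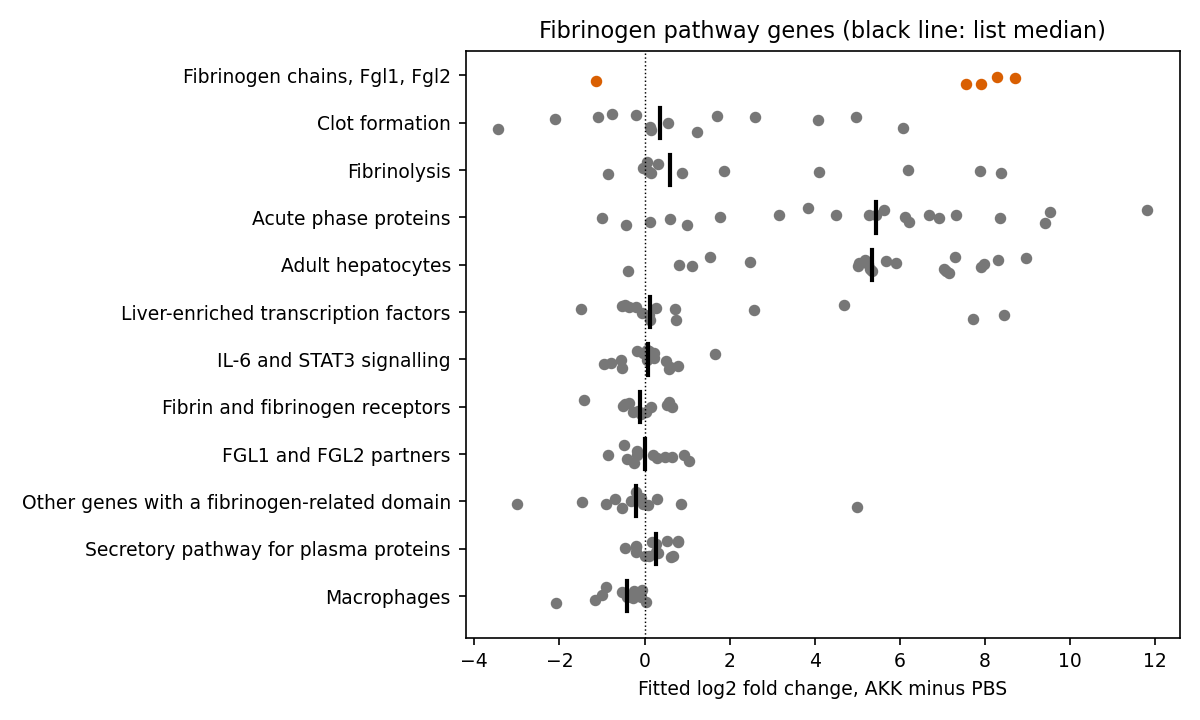
Fitted log2 difference, AKK minus PBS (horizontal axis), of the 5 members in orange and of the kept genes of 11 lists in grey, with 1 point per gene and a black line at each list's median; the fitted values of genes at 0 reads in PBS depend on the prior count. The medians lie at 0.35 for clot formation, 0.59 for fibrinolysis, 5.44 for acute phase proteins, -0.11 for receptors and 0.08 for IL-6 and STAT3 signalling.

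Receptors of fibrin and fibrinogen had log2 differences between -1.43 and 0.65. Of 12 genes, edgeR called 0, and 0 were higher and 1 lower at an unadjusted p under 0.05. DESeq2 called 0 higher and 1 lower. Over all genes, 6.70% were higher and 8.62% lower at that unadjusted p. In the list 3 lay above, 4 below and 5 overlapped. Over all genes 26.7% lay above and 24.7% below, so nothing is read from these counts. The median log2 difference of -0.11 had no stable sign, at 0.24 without PBS 1 and -0.40 without PBS 2. The gene lower at an unadjusted p under 0.05 was Cdh5. Itgb3, the β3 integrin subunit of platelets and vessels, had 29.0 and 22.3 CPM in PBS and 29.9 and 46.6 CPM in AKK (log2 difference 0.58 ± 0.28 SE, edgeR adjusted p = 0.383). Itga2b, its platelet partner, had 1.97 and 2.86 CPM in PBS and 4.10 and 2.89 CPM in AKK, and Itgam, the αM subunit of the leukocyte fibrinogen receptor, 12.1 and 7.28 CPM in PBS and 11.6 and 5.98 CPM in AKK.

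Some liver-enriched transcription factors were present in PBS tumours and others were nearly absent: 6 of 17 had under 20 reads in both PBS libraries together. Cebpa, a C/EBP factor of hepatocytes, had 14.3 and 27.2 CPM in PBS and 24.6 and 25.0 CPM in AKK. Cebpb, the C/EBP factor of the acute phase, had 38.8 and 64.9 CPM in PBS and 117 and 53.7 CPM in AKK. Foxa2 lay at 46.6 to 86.7 CPM, and Onecut2 at 255 to 406 CPM. These 4 factors overlapped between groups, as did Hnf4a. Of 15 kept factors, edgeR called 0, 4 were higher and 1 lower at an unadjusted p under 0.05, and DESeq2 called 3 higher and 1 lower. The shares over all genes at that unadjusted p were 6.70% higher and 8.62% lower. The list's median was 0.13, or 0.66 without PBS 2. Foxa3 had 0.0375 and 0.0210 CPM in PBS and 1.097 and 0.548 CPM in AKK (edgeR adjusted p = 0.182), and the 3 PBS reads give a ratio of 27.5 with a counting interval of 9.13 to 136. Nr1i3, the xenobiotic receptor CAR, had 0, 1, 270 and 22 reads, a ratio of 256 with an interval of 45.7 to 10162 (edgeR adjusted p = 0.194); its fitted log2 difference was 7.71, or 4.94 without AKK 1.

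Genes of the IL-6 and STAT3 pathway, which drives fibrinogen in the acute phase, were measured as mRNA only. The activity of the pathway was not tested. Of 16 genes, edgeR called 0, 1 was higher and 2 lower at an unadjusted p under 0.05, and DESeq2 called 1 higher and 1 lower. Over all genes, 6.70% were higher and 8.62% lower at that unadjusted p. In the list 4 lay above, 5 below and 7 overlapped, with a median of 0.08. Over all genes 26.7% lay above and 24.7% below, so nothing is read from these counts. Il6 was low in every tumour, at 1.97 and 0.757 CPM in PBS and 1.77 and 2.33 CPM in AKK. Its receptor Il6ra lay at 32.01 to 36.6 CPM. Stat3, the transcription factor, had 158 and 162 CPM in PBS and 132 and 152 CPM in AKK. Socs3, a STAT3 target that limits the signal, had 94.99 and 99.0 CPM in PBS and 123 and 102 CPM in AKK. Il1rn, the interleukin-1 receptor antagonist, had 14.4 and 29.5 CPM in PBS and 66.1 and 73.0 CPM in AKK (log2 difference 1.66 ± 0.35 SE, edgeR adjusted p = 0.188, DESeq2 adjusted p = 0.00154). Lifr, a receptor that also signals through gp130, had 67.0 and 53.2 CPM in PBS and 29.8 and 32.2 CPM in AKK (-0.96 ± 0.20 SE, edgeR adjusted p = 0.187, DESeq2 adjusted p = 0.0106). Nr3c1, the glucocorticoid receptor gene, had 52.2 and 83.4 CPM in PBS and 43.3 and 35.2 CPM in AKK (-0.79 ± 0.28 SE, edgeR adjusted p = 0.287).

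**Figure D5:**
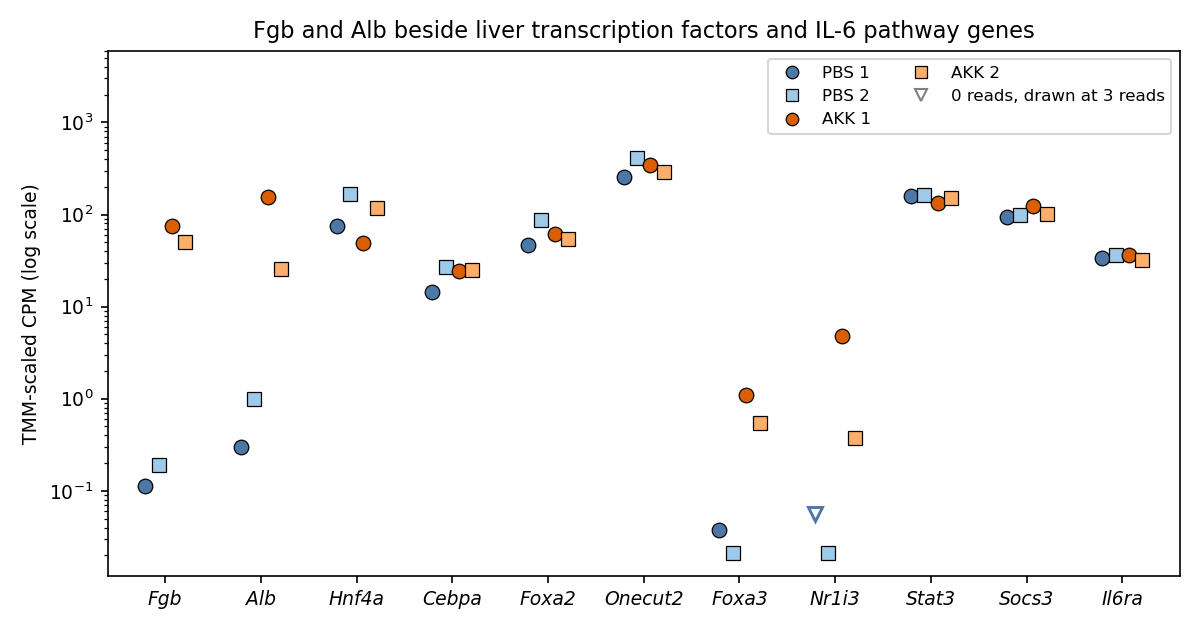
Level of Fgb and Alb beside liver transcription factors and IL-6 pathway genes in each library, as TMM-scaled CPM on a log axis, with 1 point per library. Fgb goes from 0.112 and 0.189 CPM in PBS to 75.4 and 50.8 CPM in AKK, while Cebpa and Il6ra overlap between the groups.

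Other acute phase proteins lay higher in AKK with the chains. Of 21 genes, edgeR called 0, 16 were higher and 0 lower at an unadjusted p under 0.05, and DESeq2 called 15 higher and 0 lower. The groups did not overlap for 16, all higher in AKK. The shares over all genes were 26.7% above and 24.7% below, and 6.70% higher and 8.62% lower at that unadjusted p. Of the 21, 10 had under 20 reads in the 2 PBS libraries together. Such genes needed AKK reads to pass the filter and could hardly come out lower, so the counts and median are partly fixed in advance. The median log2 difference was 5.44, or 5.28 with the 2 genes at 0 in PBS set at the floor of 3 reads per library. It was 3.82 without AKK 1 and 4.17 with only genes of at least 1 CPM in 2 libraries. Pzp had a log2 difference of 8.35 ± 0.58 SE (edgeR adjusted p = 0.0556), the value in this list nearest to that of Fgg, and 9.12 without PBS 2 or 7.28 with unstranded counts. C3 had 15.4 and 7.51 CPM in PBS and 126 and 78.04 CPM in AKK (3.15 ± 0.43 SE, edgeR adjusted p = 0.182, DESeq2 adjusted p = 2.53e-10), and 3.76 without PBS 1. Serpina3n, Saa3, Lbp and the metallothionein genes Mt1 and Mt2 overlapped between groups. Serpina3n was highest in PBS 1 at 25.7 CPM and lowest in PBS 2 at 1.05 CPM, around AKK values of 9.08 and 10.7 CPM.

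Markers of adult hepatocytes moved with the chains and Fgl1. Of 22 listed, 21 were kept, and 20 of these lay higher in both AKK libraries while 1 (Apob) overlapped. EdgeR called 0 of them, 19 were higher at an unadjusted p under 0.05 and DESeq2 called 18 higher. The shares over all genes were 26.7% above and 6.70% higher at that unadjusted p. Of the 22, 11 had under 20 reads in the 2 PBS libraries together. Such genes needed AKK reads to pass the filter and could hardly come out lower, so these counts are partly fixed in advance. The median log2 difference was 5.34, or 3.87 without AKK 1 and 6.14 without AKK 2. Alb had 0.2999 and 0.988 CPM in PBS and 156 and 25.4 CPM in AKK (7.15 ± 1.12 SE, edgeR adjusted p = 0.182). Ahsg (7.99 ± 0.69 SE, edgeR adjusted p = 0.111) and Ambp (8.30 ± 0.82 SE, edgeR adjusted p = 0.120) had differences of the size of those of Fga, Fgb and Fgg. Leaving out 1 library gave 5.31 (without AKK 1) to 8.19 (without PBS 2) for Alb, 7.15 to 8.62 for Ahsg and 7.41 to 9.48 for Ambp. The list's summed level was 345 and 780 CPM in PBS and 1097 and 836 CPM in AKK, of which Apob and Rbp4 made up most in PBS. The urea cycle enzyme Cps1 had 3 and 1 reads in PBS, and the choline-pathway enzyme Bhmt 0 and 1. The share of hepatocytes in each tumour, and its part in the chain and Fgl1 differences, was not tested. The mitochondrial share of gene reads was 1.78 and 1.64% in PBS and 3.92 and 2.33% in AKK, and its part was not tested either.

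The secretory machinery that folds fibrinogen lay slightly higher in AKK. Of 15 genes, edgeR called 0, 4 were higher and 0 lower at an unadjusted p under 0.05, and DESeq2 called 2 higher. The shares over all genes at that unadjusted p were 6.70% higher and 8.62% lower. In the list 9 lay above, 2 below and 4 overlapped, against 26.7% above and 24.7% below over all genes. The median log2 difference was 0.27, or 0.17 without AKK 2. Single genes ran from -0.47 to 0.79, and those named next are among the 9 that lay above. Pdia4 had 162 and 172 CPM in PBS and 278 and 297 CPM in AKK (log2 difference 0.78 ± 0.19 SE, edgeR adjusted p = 0.211, DESeq2 adjusted p = 0.0201). Pdia6, like Pdia4 a disulfide isomerase of the endoplasmic reticulum, had 237 and 213 CPM in PBS and 380 and 399 CPM in AKK (edgeR adjusted p = 0.217). The chaperone gene Hsp90b1 had 422 and 391 CPM in PBS and 656 and 635 CPM in AKK (0.67 ± 0.22 SE, edgeR adjusted p = 0.274). Unlike the chains, these genes were abundant in all 4 tumours.

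Other genes with a fibrinogen-related domain did not move as a block. Of 17 listed, 13 were kept, and edgeR called 0. At an unadjusted p under 0.05, 1 was higher and 1 lower, against 6.70% and 8.62% of all genes. DESeq2 called 1 higher and 1 lower. In the list 2 lay above, 4 below and 7 overlapped, against 26.7% above and 24.7% below over all genes. The median was -0.21. Tnn, tenascin-N of the matrix, had 4.05 and 0.673 CPM in PBS and 0.195 and 0.394 CPM in AKK (-2.99 ± 0.96 SE, edgeR adjusted p = 0.265, DESeq2 adjusted p = 0.0347). Without PBS 1 the Tnn difference was -1.18 (edgeR adjusted p = 0.801), and with unstranded counts -1.89. Fcna, a ficolin of macrophages, had 3.37 and 1.41 CPM in PBS and 0.708 and 1.03 CPM in AKK (-1.46 ± 0.59 SE, edgeR adjusted p = 0.326), with a difference of -0.70 without PBS 1. Angptl4 (245 to 514 CPM) and Tnc (136 to 265 CPM) were abundant and overlapped between groups. Fcnb and Fibcd1 had 0 reads in every library.

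Platelets carry fibrinogen protein, and their markers did not follow the chain mRNA. Of 6 platelet and megakaryocyte markers kept, 1 lay above, 1 below and 4 overlapped, and edgeR and DESeq2 each called 0, with 0 at an unadjusted p under 0.05. The shares over all genes were 26.7% above and 24.7% below, and 6.70% higher and 8.62% lower at that p. Nothing is read from the platelet counts. Their median log2 difference of -0.41 had no stable sign, at 0.45 without PBS 1 and -0.66 without PBS 2. The summed level of the platelet markers was 15.0 and 8.83 CPM in PBS and 13.6 and 8.19 CPM in AKK. Of 9 Kupffer cell markers, edgeR called 0, 5 were higher and 1 lower at an unadjusted p under 0.05, and DESeq2 called 4 higher and 1 lower. Of the 9, 5 had under 20 reads in the 2 PBS libraries together and needed AKK reads to pass the filter. The groups did not overlap for 1 lower gene and for 5 higher genes, led by Marco. This scavenger receptor gene had 0.244 and 0 CPM in PBS and 9.75 and 0.411 CPM in AKK. The list's median log2 difference was 4.87, or 1.70 without AKK 1. It was -0.02 when only genes with at least 1 CPM in 2 libraries were kept. The summed level was 43.5 and 36.7 CPM in PBS and 43.7 and 35.0 CPM in AKK. The resident-macrophage genes Clec4f, Vsig4, Cd5l and Timd4 each had at most 2 reads in either PBS library. The direction of these 5 genes was that of the chains and opposite to that of Fgl2.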

How the data were processed

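The authors deposited 1 table of raw read counts per gene for each of the 2 PBS and 2 AKK tumours, with columns for either strand and for both. Per the submitters' processing notes, the tools were STAR 2.5.2 and RSEM 1.2.31; the build and annotation are not given in the sources read. Counting of this kind takes reads with 1 place in the genome and 1 gene, so near-identical genes lose or share reads. Counts from the strand of the gene were used (95.4 to 96.2% of stranded reads). Summary rows that name no gene (27.6 to 31.4% of reads) were left out. Of 48526 identifiers, 48058 matched a symbol.

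Groups were compared by edgeR 4.0.16 under R 4.3.3, with its quasi-likelihood test (legacy form, two-sided), TMM scaling, filterByExpr and group as the only term. P-values were adjusted by the Benjamini-Hochberg method at 0.05 over 17479 genes. Fold changes used a prior count of 0.125, and their standard errors were derived from the F statistic. Alternatives were DESeq2 1.42.0, limma-voom (limma 3.58.1), the edgeR 4 form, other scalings and filters, the unstranded column, the replicate block and leaving out each library. The code was tested on simulated counts. The labels speak of biological replicates without naming separate mice, and p-values then measure only the spread between 2 tumour samples a group, which may be technical.

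The 5 genes and the 22 lists (9 of pathways, 13 of markers) were chosen with earlier results of these data known. Named genes are the 5 genes, their flanking genes, the 5 genes most like each by root mean square difference of log2 CPM (prior count 2, mean log2 CPM of at least 0), the kept genes of each list with the smallest p, and list genes that a sentence needed. Not every gene picked by that rule is printed, and some are not reported here. Ratios between AKK libraries needed 10 reads in each.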

Additional observations from a re-analysis of the deposited data

Results flagged for a closer look

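Reads on the strand opposite to Fgb were outside the main measurement, which counts a gene's own strand. There were 42 in AKK 1, 16 in AKK 2 and 0 in both PBS libraries. In GENCODE M21, no other gene shares exon bases with Fgb. They made up 0.976% (exact binomial 95% interval 0.704 to 1.32%) of the Fgb reads of both strands in AKK 1 and 0.536% (0.307 to 0.870%) in AKK 2. Alb, measured the same way, had 0.463% in AKK 1 and 0.269% in AKK 2. Such reads were not particular to Fgb: in AKK 1 Fgl1 had 1.11% (0.646 to 1.77%), Fga 0.764% (0.418 to 1.28%) and Fgg 0.625% (0.300 to 1.15%), with intervals that overlap that of Fgb. In AKK 2 these genes had 2, 1 and 0 opposite reads. In PBS, Fgb had only 6 and 9 reads on its own strand, so an equal share could not have been seen.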

How the results depend on the processing

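The number of genes higher in AKK past the threshold (1 as reported) was 3 with upper-quartile scaling, 291 with no filter on low counts, 357 with DESeq2, 0 with limma-voom, 4 with the edgeR 4 form of the test and 3 at an adjusted p of 0.1. The number lower (0 as reported) was 340 with no filter and 521 with DESeq2. Leaving out 1 library gave 0 to 149 higher (149 without PBS 1, 99 without PBS 2, 0 without AKK 1 and 0 without AKK 2) and 0 to 225 lower (130, 225, 0 and 0); the filter was then applied anew, the lone library was assumed to vary like the others, and the cause of these changes was not tested. With the replicate number as a block, 128 were higher and 81 lower. No label says whether the numbers pair the samples. Deviations of PBS 1 and AKK 1 from their group means correlated at -0.0153 over 17479 genes. With 2 possible pairs, that value cannot show whether some genes share a batch or litter. The 5 members kept their direction under every alternative run, which is not support, since the runs reuse the contrast that chose these members. Leaving out 1 library, their log2 differences ranged from 6.85 to 13.68 for Fga (13.68 without PBS 2, where the other PBS library has 0 reads and the value depends on the prior count), 8.36 to 9.07 for Fgb, 7.71 to 9.12 for Fgg, 6.42 (without AKK 1) to 8.19 for Fgl1 and -1.19 to -1.10 for Fgl2. With upper-quartile scaling Fgl2 was at -1.09. Counting without strand drops reads that overlap Gm30097: it gave an AKK 1 to AKK 2 ratio of 1.83 for Fgg, and shares of 55.2% for Fgb and 15.96% for Fgg in AKK 2. For the other named genes, without a library left out, 194 values kept their side of the threshold and 54 passed it. Depth limits the PBS values of the chains and Fgl1, which rest on 0 to 12 reads per library.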

Other observations

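The gene that holds Fgl2 in an intron, Ccdc146, had 0, 4, 0 and 2 reads on its own strand and 44, 63, 21 and 18 on the opposite strand, which is the strand of Fgl2, in PBS 1, PBS 2, AKK 1 and AKK 2. Gm30097, opposite to Fgg, had 0, 0, 74 and 129 reads on its opposite strand and 0 on its own in all 4 libraries.

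Among platelet products, Pf4 had 9.11 and 3.01 CPM in PBS and 6.30 and 2.57 CPM in AKK, and Ppbp 1.26 and 0.484 CPM in PBS and 0.814 and 0.428 CPM in AKK. Both were highest in PBS 1. Skeletal muscle genes were highest in PBS 1 as well: Acta1 had 83.7 CPM there and 2.29, 0.0885 and 0.240 CPM in PBS 2, AKK 1 and AKK 2.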
